A study of Mus musculus with 8 samples.

Results

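4930503L19Rik is 1 of the 19191 gene rows in a count table of RNA-seq from gut regulatory T (Treg) cells. It was taken as a single row, together with the 5 other rows of chromosome 18 whose annotated start lies within 500 kb of its own. It was chosen because its level differed between KO and WT libraries, so its own values below are a description and carry no test. The neighbours were chosen by position alone, and they were tested. In the authors' deposited table its adjusted p was 5.98e-09, rank 3 of all rows, and it was among the 66 rows (0.344%) under 0.05 there.

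Treg cells, which restrain immune responses and depend on the transcription factor Foxp3, were isolated by flow sorting of large-intestine lamina propria cells from C57BL/6 mice, whose age and sex the labels do not give. KO cells had the genotype Ahrf/- Foxp3Yfp-Cre, with 1 floxed and 1 null allele of Ahr, and WT cells had Ahrf/+ Foxp3Yfp-Cre, with 1 floxed and 1 intact allele. Both groups carried the Cre recombinase, which is made from the Foxp3 locus and removes the floxed allele in Foxp3-expressing cells, so WT Treg cells kept 1 working copy. By these genotypes the null allele of KO mice is also present outside Treg cells. There were 2 libraries per genotype among 8 samples of the series, and nothing in the labels ties replicates to different animals, so the p-values rest on the spread between these libraries, which may be technical. With 2 libraries against 2, an exact two-sided permutation test of a single value cannot go below 0.333.

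Ahr encodes the aryl hydrocarbon receptor, a ligand-activated transcription factor that senses dietary, microbial and environmental compounds and is abundant in immune cells of the gut. 4930503L19Rik is listed by RefSeq as a protein-coding gene with the synonym Las2, a name given in mice to a locus of lung adenoma susceptibility. Next to it lie Stard6, a lipid-transfer gene of the START family best known from mouse testis, Poli, which encodes the translesion DNA polymerase iota, and Mbd2, which encodes a protein that binds methylated CpG and belongs to the NuRD chromatin complex.

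The total gene count was 30993483 and 53438828 in KO replicates 1 and 2, and 26862922 and 62402450 in WT replicates 1 and 2. Counts of the targeted gene Ahr were nearly as high in KO (536 and 518 CPM) as in WT (581 and 539 CPM), and a count over the whole gene does not show a deletion of part of it. The Treg markers were present in all libraries, with Foxp3 at 248 and 256 CPM of the total in KO and at 280 and 257 CPM of the total in WT. CPM stands for counts divided by library size and multiplied by 1000000. Unless the library total is named as the scale, the size is the sum over tested genes times the TMM factor.

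4930503L19Rik (chromosome 18, 70612794 to 70632134, minus strand, mm9) was lower in both KO libraries than in both WT libraries. Its counts were 2342 and 3759 in KO replicates 1 and 2, and 4037 and 10596 in WT replicates 1 and 2. Scaled for depth, these were 76.3 and 71.1 CPM in KO and 150.3 and 166 CPM in WT. The groups did not overlap, and the gap between them was far wider than the spread within either, which the choice of this gene favoured. In 1913 tested genes (13.4%) both KO libraries lay below both WT libraries. The lowest WT library lay 1.97-fold above the highest KO library, whereas the KO libraries differed from each other by 1.07-fold and the WT libraries by 1.11-fold. In CPM of the library total, the exact 95% counting intervals were 72.5 to 78.7 and 68.1 to 72.6 in KO, and 146 to 155 and 167 to 173 in WT. The intervals of the 2 KO libraries met, and those of the 2 WT libraries did not. The means were 73.7 ± 3.68 CPM in KO and 158 ± 11.4 CPM in WT (SD, n = 2 each), so that the KO mean was 46.6% of the WT mean. The fitted log2 fold change of KO over WT was -1.10 ± 0.10 (SE), with log2 ratios of -0.98 within replicate 1 and -1.23 within replicate 2. In bulk RNA, fewer expressing cells and less RNA per cell cannot be told apart.

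**Figure D1:**
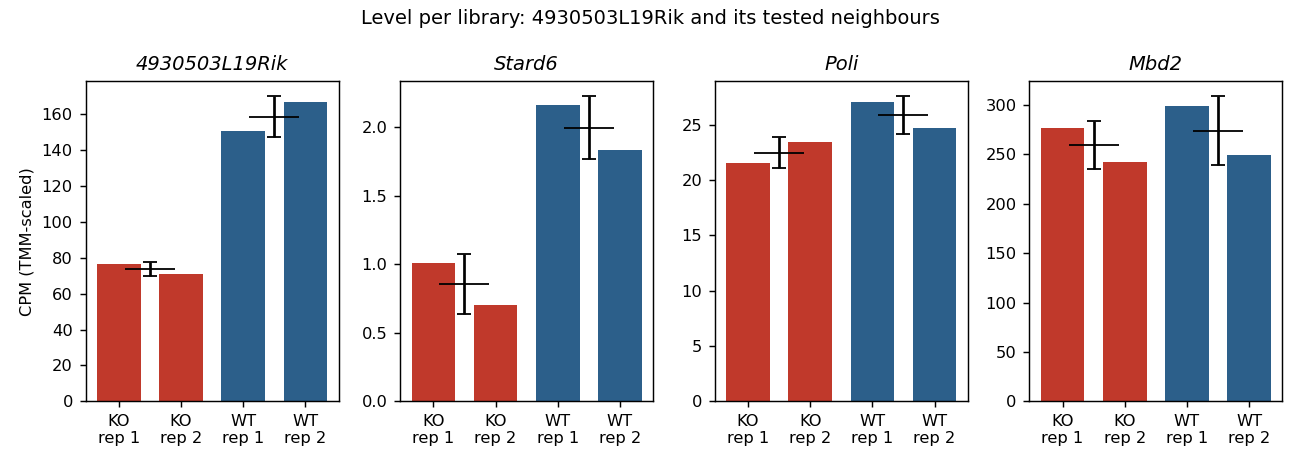
Level in each library (bars, TMM-scaled CPM, each axis starting at 0) of 4930503L19Rik and its 3 tested neighbours, with the mean and SD of each genotype in black (n = 2 each). 4930503L19Rik and Stard6 stood lower in both KO libraries by similar factors, whereas the KO and WT bars of Poli and Mbd2 lie close together.

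Stard6 (chromosome 18, 70632108 to 70660720, plus strand, mm9) begins where 4930503L19Rik ends. The genes lie on opposite strands, their 5′ ends meet, and the annotated spans share 27 bases. Stard6 was scarce, with 31 and 37 counts in KO replicates 1 and 2 against 58 and 117 counts in WT replicates 1 and 2. The levels were 1.01 and 0.700 CPM in KO and 2.16 and 1.84 CPM in WT. Both KO libraries thus lay below both WT libraries. Its log2 fold change was -1.23 ± 0.38 (SE, 95% interval -2.18 to -0.28). Within replicate 1 the log2 ratio was -1.06, and within replicate 2 it was -1.34. It did not pass the test over all genes (edgeR quasi-likelihood adjusted p = 1.00, unadjusted p = 0.0203), nor DESeq2 (adjusted p = 1.00), and its adjusted p in the authors' deposited table was 0.616. A fit with replicate as a block gave Stard6 an adjusted p of 0.0375 by edgeR, a fit that called 1.28% of all tested genes lower and 1.93% higher. At these counts the interval of Stard6 is wide.

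The ratio of Stard6 to 4930503L19Rik counts did not differ between libraries beyond its counting error. That error is wide at these Stard6 counts, so a constant ratio is not shown. Stard6 had 1.32% and 0.984% as many counts as 4930503L19Rik in KO replicates 1 and 2, and 1.44% and 1.10% in WT replicates 1 and 2. The exact 95% counting intervals of these 4 values all overlapped, running from 0.897 to 1.88% and from 0.692 to 1.36% in KO, and from 1.09 to 1.86% and from 0.912 to 1.33% in WT. The KO ratio divided by the WT ratio was 0.921 in replicate 1 (exact conditional 95% interval 0.574 to 1.45) and 0.891 in replicate 2 (0.597 to 1.30). The sources used here do not say whether counting used the strand, and reads within the shared bases or running past an annotated end could be assigned to either gene. The part of such reads in the Stard6 counts was not tested.

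Poli (chromosome 18, 70668334 to 70690274, minus strand) and Mbd2 (70727843 to 70785785, plus strand) follow on the Stard6 side, 7.61 kb beyond Stard6 and 37.6 kb beyond Poli. Poli had 21.5 and 23.4 CPM in KO and 27.1 and 24.7 CPM in WT. These groups did not overlap, but the nearest libraries were close. The log2 fold change of Poli was -0.20 ± 0.11 (SE, 95% interval -0.48 to 0.08, edgeR adjusted p = 1.00). Its log2 ratio was -0.33 within replicate 1 and -0.075 within replicate 2. Mbd2 had 276 and 242 CPM in KO and 298 and 249 CPM in WT, so its groups overlapped. Its log2 fold change was -0.08 ± 0.13 (SE, 95% interval -0.39 to 0.24, edgeR adjusted p = 1.00). A difference as large as that of 4930503L19Rik lies outside both intervals.

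The raw counts of 4930503L19Rik can also be set beside those of its neighbours in the same library, which describes the chosen difference again without a scaling between libraries. There were 0.276 and 0.293 counts of 4930503L19Rik per Mbd2 count in KO replicates 1 and 2, and 0.504 and 0.668 in WT replicates 1 and 2. The KO ratio divided by the WT ratio was 0.549 in replicate 1 and 0.439 in replicate 2. Per Poli count there were 3.55 and 3.03 counts in KO and 5.55 and 6.74 in WT. For Stard6 per Mbd2 count the quotients of KO over WT were 0.506 in replicate 1 (exact conditional 95% interval 0.316 to 0.796) and 0.392 in replicate 2 (0.263 to 0.572). These intervals cover counting error only, and they compare libraries rather than genotypes.

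**Figure D2:**
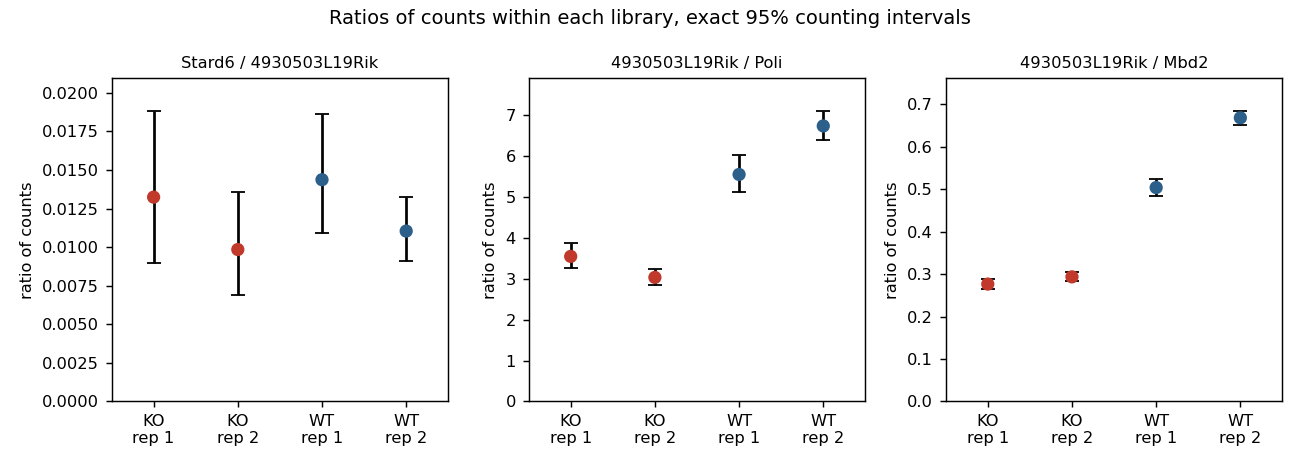
Ratios of raw counts within each library (points, KO in red and WT in blue; bars are exact 95% counting intervals). Stard6 per 4930503L19Rik count has wide intervals that overlap across all 4 libraries, whereas 4930503L19Rik per Poli and per Mbd2 count is lower in both KO libraries than in both WT libraries.

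The remaining 2 rows within 500 kb did not pass the count filter of the main edgeR fit. Without that filter, edgeR called 0 of the 5 neighbours. Rab27b, a small GTPase of secretory vesicles whose start lies 474.0 kb from that of 4930503L19Rik, had 7 and 41 counts in KO replicates 1 and 2, and 3 and 6 counts in WT replicates 1 and 2. In CPM of the library total these were 0.226 and 0.767 CPM in KO and 0.112 and 0.0962 CPM in WT. The ratio of the summed counts, KO over WT and scaled to the totals, was 5.64 (exact 95% interval 2.74 to 13.1). Without KO replicate 2 the ratio was 2.24 (0.709 to 6.76), so the excess rested on that library. These intervals cover counting error only and leave out the spread between libraries. DESeq2, which takes that spread into account, gave Rab27b a log2 fold change of 2.31 ± 1.28 (SE) and did not call it. 2310002L13Rik, which RefSeq calls Dynap, had 0 and 2 counts in KO and 0 in both WT libraries, where the floor of 3 counts stands at 0.112 and 0.0481 CPM of the total. Just outside the 500 kb limit, Ccdc68 (527.7 kb away) had 0 and 4 counts in KO and 0 and 1 in WT. On the other side Dcc, the netrin receptor gene, lies 805.6 kb away and had 1 and 16 counts in KO and 0 and 1 in WT. KO replicate 2 thus held the highest count of each of these 4 sparse genes. The same library had the highest sum over the 10 epithelial markers found, 44.1 CPM of the total, beside 28.4 in KO replicate 1 and 27.4 and 28.3 in WT replicates 1 and 2. Of these 10 markers, 8 were highest in KO replicate 2. In CPM of the library total, Krt8 was at 1.00 and 3.82 in KO and at 0 and 0.128 in WT. On the same scale Epcam was lower in KO (12.1 and 13.6) than in WT (14.7 and 14.8), as was Krt18. No epithelial marker was at 0 in every library. KO replicate 2 also had the highest sums of plasma cell (570.5 CPM of the total), cytotoxic (1206) and stromal and endothelial markers (178.9). The next highest, in WT replicate 2, were 469.6, 1114 and 176.7. Most of each sum came from a single gene, in KO replicate 2 Igj (338.9), Gzmb (1146) and Pecam1 (105.9). The members did not all follow the sums. Igj, Nkg7 and Col3a1 were highest in KO replicate 2, whereas Sdc1, Gzma and Pecam1 were lower in both KO libraries than in both WT libraries. Gzma was at 1.71 and 2.21 CPM of the total in KO and at 7.97 and 4.15 in WT. The Treg, B, macrophage and dendritic, and granulocyte and mast sums were highest in other libraries. The part of RNA from epithelial or other cells in these sparse counts was not tested.

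None of the 3 neighbours tested was called by edgeR, DESeq2 or limma-voom over all genes, and 1, Stard6, had an unadjusted edgeR p under 0.05. Across the 14274 genes tested, edgeR called 0 genes (0.0%) at an adjusted p under 0.05, and 173 were lower (1.21%) and 234 higher (1.64%) at an unadjusted p under 0.05. Of the 17996 genes to which it gave an adjusted p, DESeq2 called 18 lower (0.1%) and 30 higher (0.167%). Of the 3 neighbours, Stard6 and Poli were lower in both KO libraries than in both WT libraries, a state that 1913 tested genes (13.4%) shared. All 3 log2 fold changes were negative and their median was -0.20, whereas the median of all tested genes was 0.0074. A share out of 3 genes says little beside that background.

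The nearest tested genes outside the 500 kb limit, named after their values were seen, were Tcf4 and Mex3c. Tcf4, an E-protein transcription factor gene 1109 kb to the low-coordinate side, had 6.58 and 8.12 CPM in KO and 6.29 and 6.86 CPM in WT, a log2 fold change of 0.16 ± 0.18. Mex3c, an RNA-binding protein gene 3120 kb to the other side, had 243 and 225 CPM in KO and 215 and 190 CPM in WT, a log2 fold change of 0.21 ± 0.10. Neither passed edgeR (adjusted p = 1.00 for both). The 41 other tested genes within 5 Mb had a median log2 fold change of 0.01, with 24 above and 17 below 0.

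**Figure D3:**
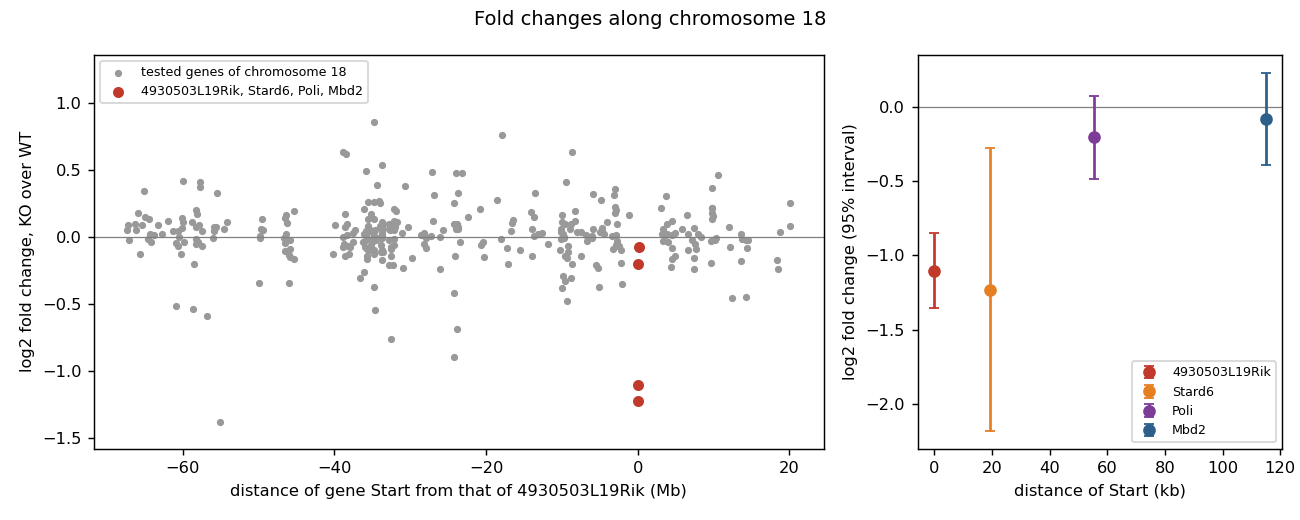
Log2 fold change of KO over WT for the 343 tested genes of chromosome 18 against the distance of their annotated start from that of 4930503L19Rik (left, Mb), and the 4 genes of the locus with 95% intervals (right, kb). 4930503L19Rik and Stard6 lie near -1.10 and -1.23 while Poli and Mbd2 lie near 0 with most of the chromosome.

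Over chromosome 18, the 342 tested genes other than 4930503L19Rik had a median log2 fold change of 0.02 and a middle range (quartiles) of -0.08 to 0.10. Neither edgeR, DESeq2 nor limma-voom called any of them. Of all tested genes edgeR and limma-voom called 0, and DESeq2 called 0.267% of its genes, so this says little about the chromosome. At an unadjusted edgeR p under 0.05 there were 2 higher and 4 lower of the 342, against 1.64% and 1.21% of all tested genes. The edgeR fit with replicate as a block called 3 of the 342 higher and 6 lower, against 1.93% and 1.28% of all tested genes. Log2 fold changes of -1 or lower occurred in 138 of all tested genes (0.967%) and, beside 4930503L19Rik itself, in 2 of chromosome 18. These were Stard6 and Aqp4, an aquaporin gene at 0.0652 and 0.208 CPM in KO and 0.410 and 0.361 CPM in WT, which is near the floor of detection. Outside the 500 kb limit, the genes of lowest p on this chromosome were Arap3 (log2 fold change -0.76 ± 0.23), Zfp516 (-0.46 ± 0.15) and Cables1 (-0.54 ± 0.22) among those lower in KO. Tubb6 (0.36 ± 0.10), a tubulin gene, Impa2 (0.31 ± 0.11), an inositol monophosphatase gene, and Gm4950 (0.27 ± 0.12) were those among the higher ones. All 6 had an adjusted p of 1.00 by edgeR with genotype as the sole term. With replicate as a block, edgeR gave an adjusted p of 0.0391 for Arap3, 0.0236 for Zfp516, 0.00209 for Cables1, 0.0154 for Tubb6, 0.0268 for Impa2 and 0.234 for Gm4950. Cables1 rested on WT replicate 1, with 32.3 and 33.5 CPM in KO and 58.5 and 37.6 CPM in WT, and its log2 fold change was -0.20 without WT replicate 1 and -0.83 without WT replicate 2.

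A search over the other 14273 tested genes gave those whose profile over the 4 libraries was most like that of 4930503L19Rik. The measure was the Euclidean distance between log2 CPM values (prior count 2) centred on each gene's mean. On this scale the profile of 4930503L19Rik itself has a length of 1.11, and 6 genes lay closer than 0.25 to it. They were St6galnac5 (distance 0.134), a sialyltransferase gene, Slc39a5 (0.165), a zinc transporter gene, Gpr15 (0.187), Wdr69 (0.193), Frmd5 (0.216) and 4933407L21Rik (0.228). Over 4 libraries that fall into 2 groups, such closeness mainly says that a gene had a like difference between the groups and little spread within them.

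Gpr15, a chemoattractant receptor gene of T cell homing to the colon, had 55.1 and 59.7 CPM in KO and 118 and 119 CPM in WT, and its log2 fold change was -1.05 ± 0.10. Wdr69 had 6.91 and 7.45 CPM in KO and 16.2 CPM in both WT libraries, a log2 fold change of -1.17 ± 0.12. Frmd5, a gene for a FERM domain protein, had 11.5 and 12.9 CPM in KO and 25.4 and 25.8 CPM in WT, a log2 fold change of -1.07 ± 0.12. Frmd5 lies on chromosome 2, Gpr15 on 16 and Wdr69 on 1, so none shares the chromosome of 4930503L19Rik. The other 3 had low counts, with at most 2.94 CPM in any library. Stard6, its neighbour, came at rank 30 with a distance of 0.399.

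Genes nearest to the mirror image of the profile were higher in both KO libraries. They were Cdkn2a (distance 0.112), a cyclin-dependent kinase inhibitor gene, 5730559C18Rik (0.145), F730035P03Rik (0.155) and Ccl4 (0.251), a chemokine gene. Ccl4 had 20.8 and 22.1 CPM in KO and 9.64 and 11.1 CPM in WT. Cdkn2a and F730035P03Rik were below 0.5 CPM in every library.

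**Figure D4:**
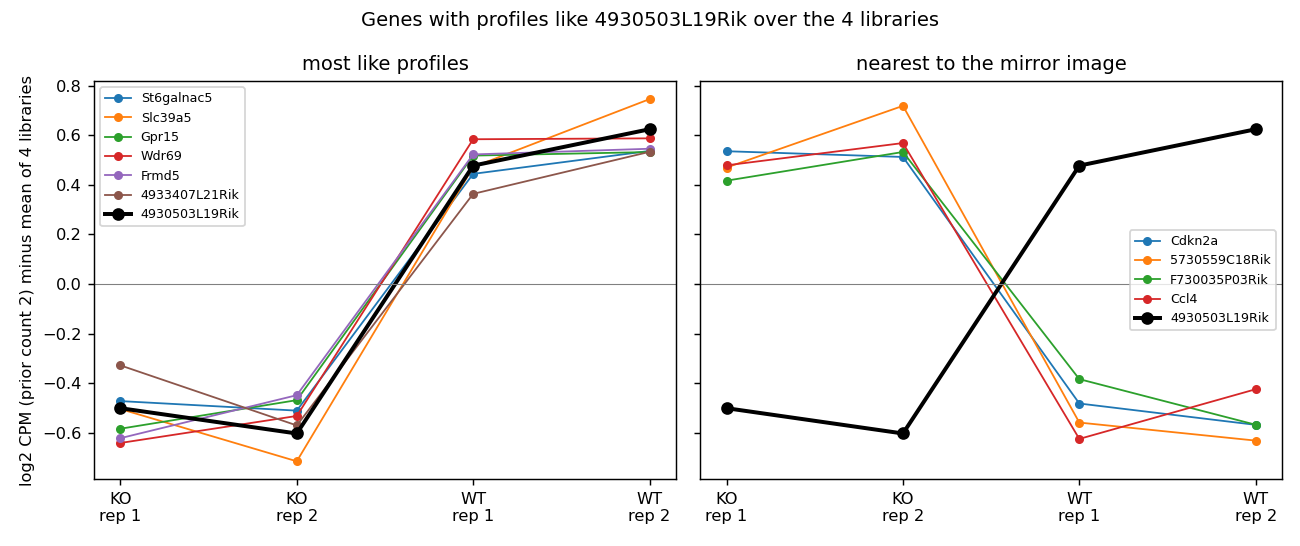
Log2 CPM (prior count 2) minus the mean of the 4 libraries, for the 6 genes most like 4930503L19Rik (left) and the 4 nearest to its mirror image (right), with 4930503L19Rik in black. All 6 lie below 0 in both KO libraries and above 0 in both WT libraries, and the other 4 do the reverse, as the choice of these genes fixes.

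The families of the neighbouring genes had medians close to 0. In each list below edgeR with genotype as the sole term called 0 members, as it called 0 of all tested genes. Of all 14274 tested genes, 7424 were higher and 6850 lower. At an unadjusted edgeR p under 0.05, 1.64% of them were higher and 1.21% lower, so 0 members in a short list says little. Of 13 tested translesion polymerase and partner genes, 11 were lower and 2 higher, with a median log2 fold change of -0.08 and 0 at an unadjusted p under 0.05. Poln, a DNA polymerase gene, had the lowest value named at -0.56 ± 0.35, with 1.01 and 1.08 CPM in KO and 1.64 and 1.46 CPM in WT. Rev3l, the catalytic subunit gene of polymerase zeta, had -0.12 ± 0.13. The 19 methyl-CpG binding and NuRD genes had a median of -0.03, with 8 higher and 11 lower and 0 at an unadjusted p under 0.05. Their named members ran from -0.22 ± 0.21 for Gatad2b through -0.18 ± 0.14 for Mbd3 to 0.12 ± 0.11 for Hdac2, a histone deacetylase gene. Without KO replicate 2, Mbd3 was at -0.058 and Hdac2 at 0.038.

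The START family, to which Stard6 belongs, had 13 tested genes with 10 lower and 3 higher and a median log2 fold change of -0.08. Of all 14274 tested genes, 6850 were lower. At an unadjusted edgeR p under 0.05, 1.21% of all tested genes were lower. Beside Stard6, the neighbour for which this family was listed, 1 member was under that limit. This was Acot11, an acyl-CoA thioesterase gene with a START domain, at 41.9 and 46.4 CPM in KO and 59.1 and 59.6 CPM in WT. The groups of Acot11 did not overlap, and its log2 fold change was -0.43 ± 0.11 (edgeR adjusted p = 1.00, DESeq2 adjusted p = 0.514). With replicate as a block, edgeR called 2 of the 13 lower, Stard6 and Acot11 (adjusted p = 0.000552 for Acot11). That fit called 1.28% of all tested genes lower. Stard13 had -0.54 ± 0.41 and Stard7 0.12 ± 0.13.

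Most cell cycle genes had log2 fold changes on the other side of 0 from 4930503L19Rik. Of 37, all of them tested, 33 were higher and 4 lower in KO, with a median log2 fold change of 0.17. Of all 14274 tested genes, 7424 were higher. Both KO libraries lay above both WT libraries for 13.5% of the list and for 13.5% of all tested genes. Of the 37, edgeR and DESeq2 called 0, where edgeR called 0 of all genes and DESeq2 0.167% higher. None of the 37 had an unadjusted edgeR p under 0.05, where 1.64% of all tested genes were higher. With replicate as a block, edgeR called 2 of the 37 higher, Mki67 and Top2a, both named after their values were seen. That fit called 1.93% of all tested genes higher. In CPM of the library total, the summed level of all 37 genes was 1835 and 2426 in KO replicates 1 and 2, and 1679 and 2182 in WT replicates 1 and 2. The sum was thus higher in replicate 2 of both genotypes, a pattern that 4930503L19Rik did not follow in KO. Pcna, the sliding clamp of DNA replication, had 0.20 ± 0.10, which was 0.10 without KO replicate 2, and Cdt1, a replication licensing gene, had 0.27 ± 0.11.

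Among the genes linked to Ahr, 6 of 8 were tested and all 6 had a negative log2 fold change, as had 6850 of all 14274 tested genes. The median of the 6 was -0.59. DESeq2 called 2 of them, Ahrr and Gpr15, where it called 0.1% of all its genes lower. The edgeR fit with replicate as a block called 3, these and Tiparp, where it called 1.28% of all tested genes lower. This list was chosen with earlier results of these data known. The differences were of unequal size. Ahrr, the repressor that Ahr induces, had 0.391 and 0.265 CPM in KO and 7.30 and 6.55 CPM in WT, a log2 fold change of -4.42 ± 0.31. Tiparp, an Ahr-induced ADP-ribosyltransferase gene, had -0.46 ± 0.10, and Arnt, the partner of Ahr, had -0.14 ± 0.22. Nqo1 had -0.72 ± 0.55, and its groups overlapped. The log2 fold change of 4930503L19Rik thus lay between those of Nqo1 and Ahrr. It was next to that of Gpr15, from which it differed by less than its standard error. As 4930503L19Rik and the list holding Gpr15 were chosen with results of these data known, this closeness is a description.

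**Figure D5:**
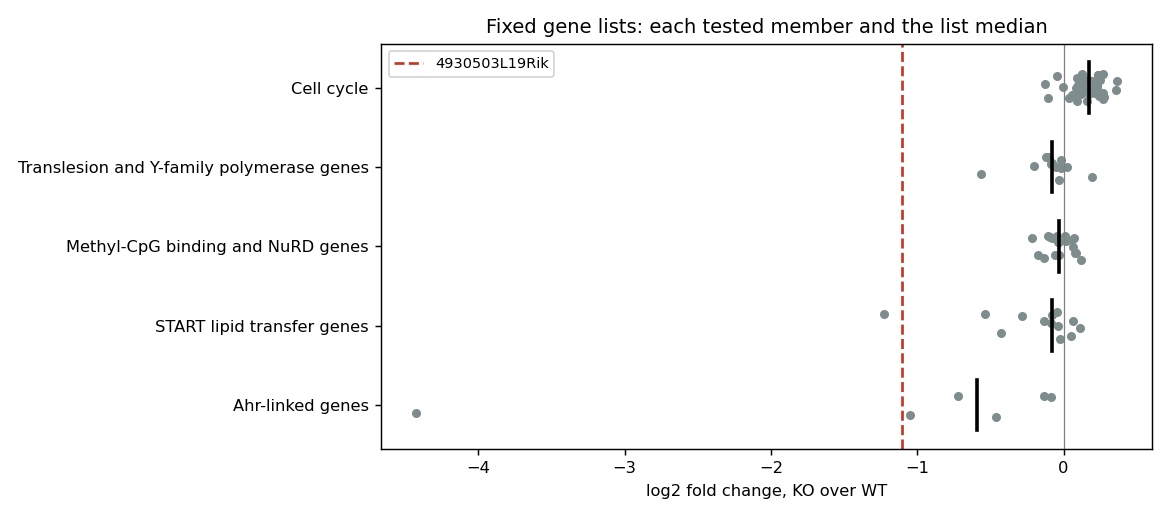
Log2 fold change of KO over WT for each tested member of 5 gene lists (points, spread vertically for legibility), with the list median as a black line and 4930503L19Rik as a dashed line. Most members of the cell cycle list lie above 0, the medians of the 3 neighbour families lie near 0, and Ahrr stands alone at -4.42.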

How the data were processed

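Total RNA (Trizol, then a column) was depleted of ribosomal RNA and sequenced as 50 bp single-end reads, per the labels' protocols. The authors' deposited table held whole-number counts per gene and library without normalization, gene positions and an adjusted p-value whose comparison it does not name, read here as KO against WT. TopHat2, DESeq and mm9 are named without versions, per the submitters' processing notes, and no source used here gives the counter, annotation or strand setting. ATAC-seq (4 samples) was not analysed here.

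KO and WT libraries were compared by the quasi-likelihood test of edgeR 4.0.16 (R 4.3.3) without covariates, after filterByExpr (14274 genes kept, 4917 not tested), TMM scaling and Benjamini-Hochberg adjustment over all tested genes at 0.05. SEs are the log2 fold change over the root of F. DESeq2 1.42.0 and limma 3.58.1 (voom) were alternatives, as were other scalings and filters, a replicate block, windows of 250 and 1000 kb, an adjusted p under 0.1 and leaving out each library. Scripts were tested on simulated data. Count ratios, their exact intervals and the 5 Mb window were chosen after seeing the data. Floors are 3 counts per library. Without molecular identifiers, intervals and floors describe counting error alone.

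The gene and the lists were chosen with earlier results of these data known. The naming rule takes every row within 500 kb with a count, the 6 most like and 4 mirror profiles, the 4 lowest p per list and 3 genes per direction elsewhere on chromosome 18. Not all are reported. Other marker lists fixed were B, plasma, macrophage and dendritic, granulocyte and mast, cytotoxic, and stromal and endothelial cells. The main edgeR fit called 0 members of any, but it called 0 of all tested genes, so this says nothing about cell composition.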

Additional observations from a re-analysis of the deposited data

How the results depend on the processing

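The log2 fold change of 4930503L19Rik stayed between -1.11 and -1.10 under other scalings, filters and tools and between -1.18 and -1.03 without single libraries. The median of its tested neighbours ran from -0.27 to -0.04 (without WT replicate 1) when single libraries were left out. Rab27b then passed the filter in all such fits but that without KO replicate 2, and over the same 3 neighbours the median ran from -0.27 to -0.14. The count of genes called by edgeR, 0, was 52 with no filter, 48 with DESeq2, 458 with the replicate number as a block (275 higher and 183 lower) and 0 to 2 without single libraries, and stayed 0 by limma-voom. The cause was not tested. The block also called 1 neighbour, Stard6. Labels do not say that replicate numbers pair samples, so the block is an alternative. Deviations of same-numbered libraries correlated at 0.641 across genes, and the fit leaves 1 residual degree of freedom. Without single libraries the log2 fold change ran from -1.52 to -0.98 for Stard6, from -0.27 to -0.14 for Poli, from -0.20 to 0.056 for Mbd2, from -0.30 to 0.034 for Rev3l, from -0.44 to 0.025 for Gatad2b and from -0.0054 to 0.21 for Stard7, so the direction of the last 4 was not settled. Without single libraries Mbd3 ran from -0.31 to -0.058, Hdac2 from 0.038 to 0.19, Pcna from 0.10 to 0.27, Stard13 from -0.76 to -0.34 and Cables1 from -0.83 to -0.20. Depth limits Stard6, Rab27b and the other sparse rows.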
